A study of Arabidopsis thaliana with 21 samples.

Results

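AT1G22810 and AT2G41730 are 2 Arabidopsis thaliana genes chosen because their signals separated a synthetic compound called A from another called B. AT1G22810, which codes for an ERF family transcription factor, was higher with A, and AT2G41730 was higher with B. Each is paired with 1 probe set of the ATH1 array, among 13513 probe sets that the platform table pairs with 1 gene, and no probe set paired with several genes holds either of them. The 2 genes were selected on measured values, the differences between seedlings given A and seedlings given B. Those differences, and the differences of a single compound from a control, are therefore given below as a description with no test.

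The study searched for small molecules that inhibit transcriptional activation by auxin. RNA came from whole Col-0 seedlings grown for 7 days in the light in liquid culture, in 0.5-strength MS medium with 1.5% sucrose. All seedlings were treated for 1 h, either with DMSO as the solvent control (n = 4) or with the natural auxin indole-3-acetic acid, IAA, at 5 µM (n = 4), A at 10 µM (n = 4), B at 10 µM (n = 3), both IAA and A at these doses (n = 3) or both IAA and B (n = 3). A and B are known here by these letters alone. No label states that a group's arrays are from different cultures, so p-values measure the spread between arrays, which may be technical. In whole seedlings, fewer cells of a type and less RNA per cell cannot be told apart.

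ERF factors are plant transcription factors that bind DNA through an AP2 domain, and the family includes the DREB branch known from cold and drought responses. Many ERF genes respond quickly and briefly to wounding, pathogens, ethylene, jasmonate or chemical stress. Auxin acts by a different route: it promotes the breakdown of Aux/IAA repressors, and early auxin genes such as GH3.3, which codes for an enzyme that conjugates IAA, rise soon after it is added. The tables used here give AT2G41730 no symbol and no function beyond coding for a protein.

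The values are log2 signals per probe set, as the authors deposited them, so a difference of 1 is a 2-fold change. The array medians over all probe sets, including 64 control probe sets, lay between 7.16 and 7.24. After the controls were left out, 22746 probe sets were tested, and no pair of arrays held identical values. The number of arrays limits the precision. For 1 of 21 arrays, IAA 2, the experiment file written at the array run names compound B, whereas its title and description name IAA. GH3.3 stood at 13.3 on that array, against 12.8 to 13.2 on the other IAA arrays and 8.45 to 8.65 with B. The glutaredoxin gene GRX480 stood at 5.18 there, against 10.3 to 10.7 with B and 5.37 to 6.19 on the other IAA arrays. The array was kept as labelled, and the differences from IAA are also given without it. Green tissue and root were both represented. The chloroplast gene RCA, the 1 measured gene of 7 shoot markers, was at 13.0 to 13.3 on all arrays, and 5 of 7 root markers were measured. The mean signal of those root markers was 8.65 to 9.03 on the 6 arrays with B and 9.71 to 10.7 on the other 15 arrays. It moved with the compound that marks AT2G41730, and its part in the values of that gene was not tested.

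AT1G22810 was near the bottom of the signal range in every seedling sample without A and in the middle of it in every sample with A. On the DMSO arrays it stood at 4.28, 4.15, 4.16 and 4.02, and on the IAA arrays at 4.10, 4.13, 4.00 and 4.26. These 8 values overlapped and covered the 6.90th to 11.3th percentile of the probe sets on their arrays. The table carries no detection call, so whether a signal this low is above background was not measured, and a fold change from it may be understated.

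With A alone the AT1G22810 signal was 7.84, 8.20, 7.66 and 7.40. With IAA plus A it was 7.27, 7.40 and 7.28. All 7 arrays with A lay above all 14 arrays without it, and they lay between the 50.8th and 66.7th percentile of their arrays. The mean was 7.78 ± 0.33 (SD, n = 4) with A and 7.32 ± 0.07 (SD, n = 3) with IAA plus A, so the arrays with A alone spread more widely. The SD with A alone ranked at the 90.0th percentile of all probe sets in that group, and that with IAA plus A at the 37.1th.

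With B alone AT1G22810 stood at 4.46, 4.56 and 4.59, and with IAA plus B at 4.56, 4.43 and 4.65. The 6 arrays with B covered 4.43 to 4.65 and did not overlap with the 8 arrays without a compound, which covered 4.00 to 4.28. Of all probe sets, 6.10% had no overlap between these 6 and 8 arrays. The gap between these sets of arrays was 0.15 log2 units, small beside the distance to the arrays with A.

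AT2G41730 was in the middle of the signal range without a compound and near the top with B. On the DMSO arrays it stood at 7.97, 6.71, 6.82 and 6.85, so 1 array, DMSO 1, was more than 1 log2 unit above the others. On the IAA arrays it stood at 6.74, 7.31, 7.06 and 7.12, within the range of DMSO. The group means were 7.09 ± 0.59 (SD, n = 4) and 7.06 ± 0.24 (SD, n = 4). Without IAA 2 the IAA mean was 6.97 for AT2G41730 and 4.12 for AT1G22810, and both genes still overlapped with DMSO.

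With B alone the AT2G41730 signal was 11.29, 10.57 and 10.76. With IAA plus B it was 10.06, 10.57 and 10.16. All 6 arrays with B lay above all 15 arrays without it, at the 90.9th to 97.0th percentile of the probe sets on their arrays. The means were 10.88 ± 0.37 (SD, n = 3) and 10.26 ± 0.27 (SD, n = 3).

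With A alone AT2G41730 stood at 8.25, 8.07, 7.37 and 7.71, and with IAA plus A at 7.44, 8.19 and 7.60. The A arrays overlapped with DMSO through DMSO 1 only, and all of them lay above the other 3 DMSO arrays. The arrays with IAA plus A lay above all IAA arrays, and 31.3% of all probe sets had no overlap between these groups. AT2G41730 varied more within groups than most probe sets, with an SD between the 90.6th and the 98.0th percentile of all probe sets in the 6 groups.

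**Figure D1:**
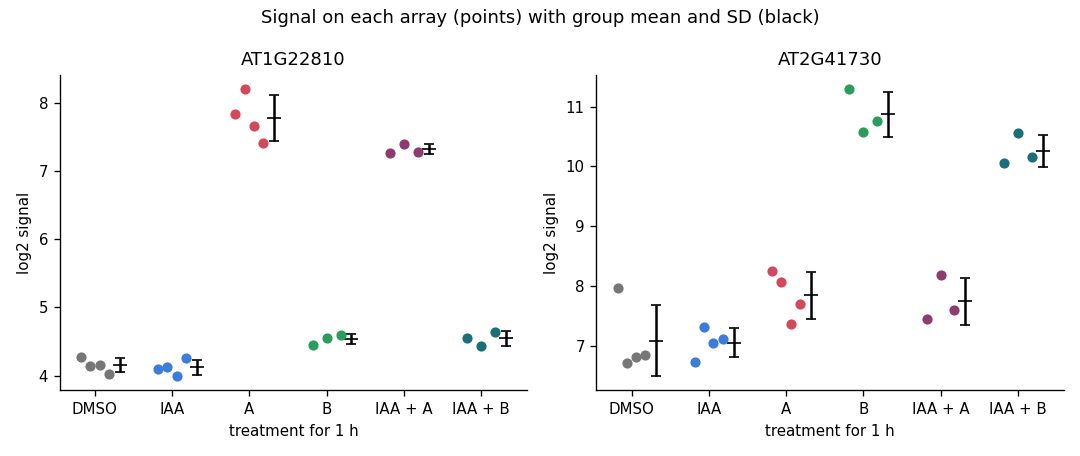
Log2 signal of AT1G22810 (left) and AT2G41730 (right) on each of 21 arrays, by treatment, with the group mean and SD in black beside the points. The arrays with A sit at 7.27 to 8.20 for AT1G22810 and those with B at 10.06 to 11.29 for AT2G41730, above all other arrays in each panel, and DMSO 1 stands above the other DMSO arrays for AT2G41730.

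By group mean, AT1G22810 ran from IAA (4.12) over DMSO (4.15), B (4.54) and IAA plus B (4.55) to IAA plus A (7.32) and A (7.78). IAA overlapped with DMSO, and B overlapped with IAA plus B. The step from IAA plus B to IAA plus A was 2.77 log2 units, and its closest arrays were 2.62 apart. IAA plus A and A also did not overlap, but their closest arrays differed by 0.0033.

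AT2G41730 ran from IAA (7.06) over DMSO (7.09), IAA plus A (7.75) and A (7.85) to IAA plus B (10.26) and B (10.88). The first 4 groups in that order overlapped with their neighbours. The step from A to IAA plus B was 2.42, with the closest arrays 1.81 apart. IAA plus B and B had no overlap, with the closest arrays 0.0032 apart. Group membership held 99.1% of the variance of AT1G22810 over the arrays and 94.9% of that of AT2G41730, where the median probe set had 39.4%. The genes were chosen for a difference between groups, so high shares follow from that choice.

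The difference between the compounds was addressed without and with added auxin. For AT1G22810, A minus B was 3.24 ± 0.13 (SE) log2 units without IAA, a 9.45-fold difference, and 2.77 ± 0.14 with IAA, a 6.83-fold difference. For AT2G41730, A minus B was -3.03 ± 0.28 without IAA and -2.52 ± 0.30 with IAA, so that B exceeded A 8.15-fold and 5.73-fold. The signs were the same on every pair of arrays: the differences ran from 2.62 to 3.74 for AT1G22810 over both auxin states, and from -3.93 to -1.87 for AT2G41730. Arrays of A and B were likewise free of overlap for 17.0% of all probe sets without IAA and 25.2% with it.

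In size order among the 22746 probe sets, AT1G22810 had the 3rd largest rise of A over B without IAA and the 10th largest with IAA. AT2G41730 had the lowest value of A minus B without IAA and the 2nd lowest with IAA. The next in that direction without IAA was an unnamed probe set at -2.92, then AT3G62550 at -2.54. Above AT1G22810 were an unnamed probe set at 3.62 and AT4G26010 at 3.41, and just below it was AT1G34510 at 3.20. Their differences from DMSO were made up in several ways. AT4G26010 stood at 0.10 with A and -3.31 with B against DMSO, and AT1G34510 at -0.30 and -3.50, whereas AT1G22810 stood at 3.62 and 0.38. AT3G62550 stood at -2.19 with A and 0.35 with B, whereas AT2G41730 stood at 0.76 and 3.79. The unnamed probe set beside AT2G41730 was like it, at 1.05 with A and 3.96 with B.

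Counted over both auxin states, AT1G22810 had the widest gap of all probe sets between the lowest of the 7 arrays with A and the highest of the 14 others, at 2.62 log2 units, and the next widest was 1.66. A gap above 0 in that direction was found for 217 probe sets. AT2G41730 had the widest gap between the 6 arrays with B and the 15 others, at 1.81, with the next at 1.48. There, 67 probe sets had a gap above 0. These ranks describe how the genes stand out by the property they were chosen for.

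**Figure D2:**
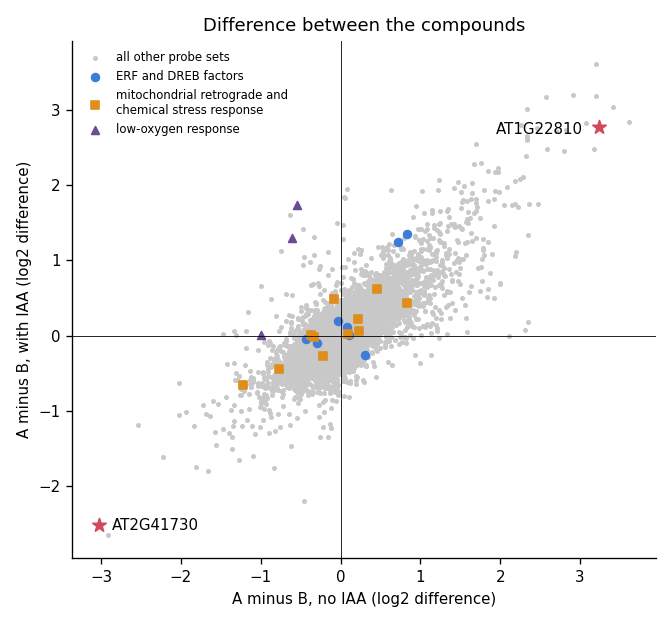
Log2 difference of A minus B for each of 22746 probe sets, without IAA (horizontal axis) and with IAA (vertical axis), with AT1G22810 and AT2G41730 as stars and the genes of 3 lists as coloured symbols. AT1G22810 lies at 3.24 and 2.77 and AT2G41730 at -3.03 and -2.52, each far from the genes of the lists.

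Each compound was set against its own control. AT1G22810 was 3.62 ± 0.12 log2 units higher with A than in DMSO (12.3-fold), and 3.20 ± 0.13 higher with IAA plus A than with IAA (9.16-fold). With B the corresponding differences were 0.38 ± 0.13 and 0.42 ± 0.13. B thus also came with a higher signal than its control in both auxin states, by less than 0.5 log2 units. The groups did not overlap in these 4 comparisons, nor did they for 9.21% of all probe sets in A against DMSO, 31.3% in IAA plus A against IAA, 16.9% in B against DMSO and 24.8% in IAA plus B against IAA.

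AT2G41730 was 3.79 ± 0.28 log2 units higher with B than in DMSO (13.8-fold), and 3.21 ± 0.28 higher with IAA plus B than with IAA (9.24-fold). With A the differences were 0.76 ± 0.26 (1.69-fold) and 0.69 ± 0.28 (1.61-fold). Without any 1 array, the first of these lay between 0.63 and 1.05, the highest being without DMSO 1, and the second between 0.47 and 0.84. An earlier analysis of the data found 4 arrays apart from the rest (A 2, IAA plus B 1, DMSO 2 and DMSO 4). The first difference was 0.38 ± 0.32 when they were left out. The DMSO arrays kept there were DMSO 1, the high one at 7.97, and DMSO 3 at 6.82. Comparisons with DMSO share the DMSO arrays and those with IAA share the IAA arrays. Without IAA 2, the IAA-based differences were 3.20 and 0.42 for AT1G22810 and 0.77 and 3.29 for AT2G41730.

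The mean over both compounds is given as a description, since a gene chosen for a difference between A and B must differ from DMSO with at least 1 of them. Over the 7 arrays with A or B alone, this mean was 2.24 ± 0.10 log2 units above DMSO for AT1G22810 and 2.06 ± 0.23 for AT2G41730. Over the 6 arrays with IAA and a compound, it was 1.81 ± 0.11 above IAA for AT1G22810 and 1.95 ± 0.23 for AT2G41730. Without IAA 2 the differences from IAA were 1.81 and 2.03. A mean over both compounds does not say which of them carries it.

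The mean response to auxin alone, IAA minus DMSO, uses no array with a compound. The SE, interval and adjusted p below rest on the spread within all groups, including those with A or B. IAA minus DMSO was -0.03 ± 0.12 log2 units for AT1G22810 (adjusted p = 0.957, limma), with a 95% interval from -0.27 to 0.22. For AT2G41730 it was -0.03 ± 0.26 (adjusted p = 0.979), with an interval from -0.57 to 0.50. Neither gene passed, whereas 1.91% of all probe sets did, and the IAA and DMSO arrays overlapped for both genes while 7.59% of all probe sets had no overlap. For AT1G22810 a change of signal by more than 0.27 in either direction lies outside the interval. Its signal here was near the bottom of the range and may be background, so the interval does not bound a change of the transcript. For AT2G41730 the interval is wider, and without DMSO 1 the difference was 0.26 (adjusted p = 0.714). Without IAA 2 the differences were -0.03 and -0.12. With only the IAA and DMSO arrays in the fit, the SE was 0.07 for AT1G22810 and 0.26 for AT2G41730. Neither gene passed in that fit (adjusted p = 0.920 and 0.977, limma).

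The effect of IAA was also taken with a compound present. AT1G22810 stood at -0.46 ± 0.13 log2 units with IAA plus A against A, and at 0.01 ± 0.14 with IAA plus B against B. AT2G41730 stood at -0.10 ± 0.28 with IAA plus A against A and at -0.61 ± 0.30 with IAA plus B against B, or -0.40 without B 1, the highest B array. The groups did not overlap for AT1G22810 in the comparison with A and for AT2G41730 in that with B, and the shares of all probe sets without overlap were 8.64% and 14.8%.

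Averaged over the compounds by array number, IAA with a compound minus the compound was -0.46 ± 0.09 log2 units for AT1G22810 (adjusted p = 0.00637, limma) and -0.14 ± 0.20 for AT2G41730 (adjusted p = 0.866), in a comparison where 2.19% of all probe sets passed and 0.391% passed downwards. This mean weights A at 0.571 without IAA and at 0.5 with IAA, since B had 1 array fewer than A, and the unequal weights alone put -0.23 into the value of AT1G22810 and 0.22 into that of AT2G41730. With equal weights, a setting chosen after seeing the data, the values were -0.22 ± 0.09 (adjusted p = 0.327) and -0.36 ± 0.20 (adjusted p = 0.542), and 2.21% of all probe sets passed. The call for AT1G22810 was therefore lost. Since the arrays with A or B alone also chose the genes, the adjusted p in this paragraph may not be independent of that choice. No fall is concluded from them, with either weighting. Whether the response to IAA differed with and without a compound was not resolved either. That difference was -0.43 ± 0.15 for AT1G22810 (adjusted p = 0.688) and -0.11 ± 0.33 for AT2G41730 (adjusted p = 0.995), and 0.101% of all probe sets passed. With equal weights it was -0.19 ± 0.15 and -0.32 ± 0.33, and 0.106% passed. Without IAA 2, and with the weights by array number, it was -0.42 and -0.02, and neither gene passed (adjusted p = 0.824 and 0.999, limma).

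**Figure D3:**
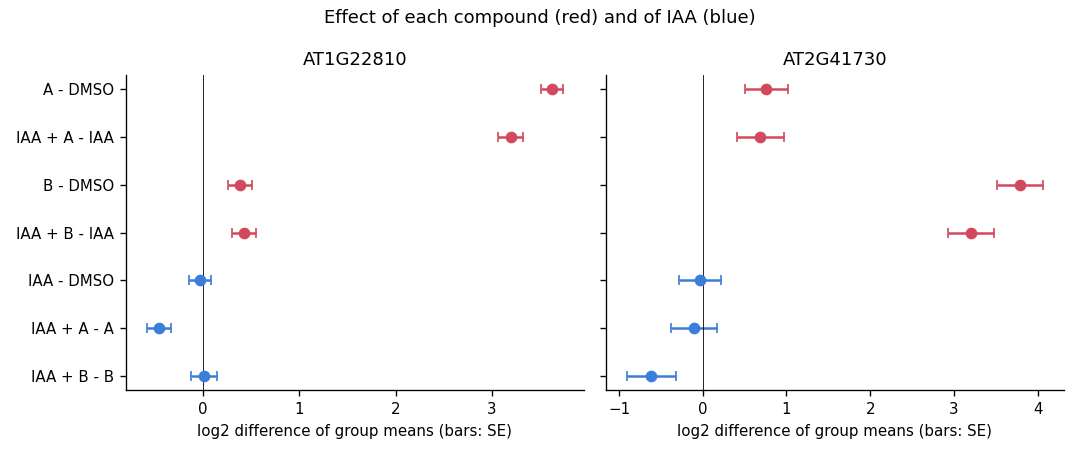
Log2 differences between group means for AT1G22810 (left) and AT2G41730 (right), with bars of 1 SE, for each compound against its control (red) and for IAA against its control (blue). The compound effects of A on AT1G22810 (3.62 and 3.20) and of B on AT2G41730 (3.79 and 3.21) stand apart from the rest, and the IAA effects lie between -0.61 and 0.01.

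The genes most like AT1G22810 were sought by Pearson's r over the 21 arrays, as a description, since these arrays share treatments. Only probe sets paired with 1 gene were considered. The 5 genes with the highest r were the beta-glucosidase gene BGLU27 (0.969), AT1G15430 (0.959), AT5G58680 (0.958), AT1G71000 (0.955) and AT3G07090 (0.954). Among all probe sets, these 5 genes ranked between 2nd and 7th by r. Like AT1G22810 they were higher with A than with B. AT1G71000 had the largest difference among them, with means of 5.23 in DMSO, 9.28 with A, 6.71 with B, 8.78 with IAA plus A and 5.61 with IAA plus B, so its signal with B alone was also 1.48 log2 units above DMSO. BGLU27 had means of 4.76 in DMSO, 6.71 with A and 4.92 with B. The other 3 genes had A minus B between 0.92 and 0.96 log2 units without IAA.

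For AT2G41730 the 5 genes were AT5G13200 (0.942), AT3G54520 (0.911), AT5G40460 (0.905), AT4G17260 (0.903) and AT2G35480 (0.900). They ranked between 4th and 16th among all probe sets, and an unnamed probe set had a higher r, at 0.956. AT5G13200 rose in means from 7.12 in DMSO to 8.38 with A and 9.78 with B, and so was above DMSO with both compounds. AT3G54520 stood at 3.67 in DMSO and 3.65 with A but at 5.49 with B and 4.74 with IAA plus B. The other 3 genes had A minus B between -0.92 and -0.41. The 2 members themselves had r = -0.13 over the 21 arrays.

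**Figure D4:**
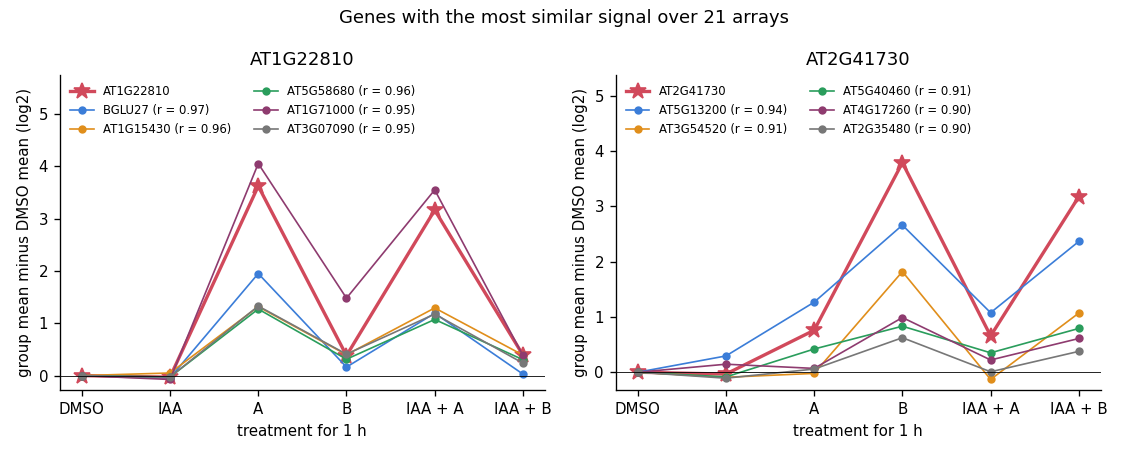
Group mean minus DMSO mean (log2) in the 6 treatments for AT1G22810 (left) and AT2G41730 (right). Each is drawn with the 5 genes of highest Pearson r over 21 arrays, among probe sets paired with 1 gene. AT1G71000 reaches 4.05 with A, above the 3.62 of AT1G22810. Of the 5 genes drawn beside AT2G41730, none reaches its 3.79 with B, the nearest being AT5G13200 at 2.66. An unnamed probe set that is not drawn reaches 3.96 with B.

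The probe set of AT2G41730 has the suffix _x_at, which marks probes that may also bind other transcripts, so its signal may not come from this gene alone. The probe set of AT1G22810 carries no such mark. On the chromosome, the 2 coding genes on either side of AT1G22810 are AT1G22790, AT1G22800, AT1G22830 and the cytochrome c gene CYTC-1. All 4 were measured. Without IAA, their A minus B lay between 0.02 and 0.08 log2 units (adjusted p of at least 0.608, limma), and with IAA between -0.13 and 0.20. None passed without IAA, where 6.37% of all probe sets did, so that a count of 0 among 4 says little. Of the 4 around AT2G41730, 1 was measured, AT2G41710, at 0.02 ± 0.10 without IAA and -0.14 with it.

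Other ERF and DREB genes were compared between the compounds as the family of AT1G22810. Their list and the lists below were chosen with earlier results of these data known, so the counts may not be independent of those results. Of 51 listed genes, 8 had a probe set paired with 1 gene. Without IAA, 1 of 8 was higher with A than with B and 7 did not pass, where 6.37% of all probe sets passed in either direction, 4.23% with A higher and 2.14% with B higher. It was AT1G19210, at 0.83 ± 0.12 log2 units (adjusted p = 0.000407, limma), with means of 6.32 with A, 5.49 with B and 5.24 in DMSO. With IAA, 2 of 8 were higher with IAA plus A than with IAA plus B, where 2.82% of all probe sets passed and 1.93% passed with A higher. They were AT1G19210, at 1.36 ± 0.13, and ORA47, a regulator of jasmonate synthesis genes, at 1.24 ± 0.26 (adjusted p = 0.0107). Without IAA, ORA47 stood at 0.72 ± 0.24 and missed the threshold (adjusted p = 0.0819), and AT1G77640 at -0.44 ± 0.16 (adjusted p = 0.0997). The median of the list was 0.09, against -0.02 for all probe sets.

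Genes of the mitochondrial retrograde and chemical stress response were listed as context for AT2G41730, and 11 of 24 were measured. With B higher than A, 2 of 11 passed without IAA, where 2.14% of all probe sets passed in that direction: AT2G21640 at -1.22 ± 0.26 (adjusted p = 0.00894) and the glutathione transferase gene GSTU25 at -0.77 ± 0.18 (adjusted p = 0.0142). The patterns of the pair differed. AT2G21640 had means of 7.63 in DMSO, 7.65 with A and 8.87 with B, whereas GSTU25 went from 6.64 in DMSO to 10.1 with A and 10.8 with B. With IAA, 0 of 11 passed, where 2.82% of all probe sets did, and AT2G21640 stood at -0.65 and GSTU25 at -0.44. AT3G04000, at 0.83 ± 0.39 (adjusted p = 0.214), and AT5G51440, at 0.46 ± 0.29 (adjusted p = 0.374), did not pass without IAA. The list's median was -0.08 without IAA and 0.02 with it, against -0.02 for all probe sets in both.

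Of 14 low-oxygen response genes, 3 were measured and 0 passed between A and B in either auxin state, where 6.37% of all probe sets passed without IAA and 2.82% with it, so that a count of 0 among 3 says little. Without IAA, the pyruvate decarboxylase gene PDC2, an enzyme of fermentation, stood at -0.99 ± 0.50 (adjusted p = 0.256) and AT4G10270 at -0.61 ± 0.60 (adjusted p = 0.596), with a list median of -0.61. With IAA the values were of the other sign or near 0, at 0.01 ± 0.54 for PDC2 and 1.298 ± 0.64 (adjusted p = 0.315) for AT4G10270, which was also the list's median.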

How the data were processed

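ATH1 arrays of 21 RNA samples were analysed. The authors deposited log2 signals, 1 for each probe set on each array, and the method of summary and normalisation they used was not given in the sources used here. Genes were named through the platform table supplied with the data and the RefSeq gene table (TAIR10.1). Per the file headers, all arrays came from 1 chip lot, with no scan date, so no batch could be tested.

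For 22746 probe sets, group means were estimated in 1 linear model over the 21 arrays (limma 3.58.1, R 4.3.3). Variances were moderated along an intensity trend, with two-sided tests and Benjamini-Hochberg adjustment over all probe sets at 0.05. It was tested on simulated data. The 2 members and the gene lists were chosen with earlier results of these data known. Means over both compounds weight A and B by array number, so that their error is uncorrelated with that of A minus B. In 2 comparisons the weight of A then differs between the sides, so they are also given with equal weights. The means over both compounds against DMSO and against IAA are reported with no test. The genes named were the members, the 5 genes per member with the highest r, and, per list, up to 5 genes per direction past the threshold in A against B and up to 2 not past it. The alternatives were quantile scaling, a filter on dim probe sets, only the groups compared, no intensity trend, array weights, a replicate block, and arrays left out.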

Additional observations from a re-analysis of the deposited data

Results flagged for a closer look

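AT2G41730 stood at 7.97 on DMSO 1, and its distance to the nearest of the other 3 DMSO arrays was 0.885 of the range of the group, above Dixon's 95% critical value for 4 samples. About 1 in 20 groups would be picked out this way by chance, and 6 groups were looked at for the 2 genes. No other group of 4 arrays exceeded the critical value for either gene, and groups of 3 were not tested. Without DMSO 1, AT2G41730 was 4.08 log2 units higher with B than in DMSO, against 3.79 with it. The mean over both compounds minus DMSO was 2.35 log2 units without that array, against 2.06 with it.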

How the results depend on the processing

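Of 638 recomputed values, 620 kept their direction where one was called and their side of the threshold or size. Size was judged loosely for counts. The change from 2117 to 3146 calls for compounds against DMSO, under array weights, was among the 620. The equal weights for A and B moved IAA with a compound minus the compound, for AT1G22810, to -0.22 log2 units. Its adjusted p went from 0.00637 to 0.327 (limma), because A no longer had a larger share without IAA. Without the 4 arrays that stand apart, A minus DMSO was 3.42 for AT1G22810. With a replicate block, the differences over both compounds from DMSO were 2.22 and 2.04 and those from IAA 1.77 and 1.91, and the block changed no call of either gene. Under it the counts of calls in the 5 comparisons, in the order below, were 489, 2396, 2881, 493 and 25. Whether the numbers pair the arrays was not tested. Over 48 pairs of same-numbered arrays of different groups the residual correlation ran from -0.43 to 0.54, with a median of 0.03. Over 135 pairs of other numbers it ran from -0.57 to 0.53, with a median of -0.03. Of 21 arrays, 11 correlated best with one of their own number. Leaving out 1 array moved A minus B without IAA between 3.10 and 3.36 for AT1G22810 and between -3.18 and -2.82 for AT2G41730. The dim-probe alternative left out AT1G22810, and the batch block could not be run.

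Counts over all probe sets moved more, for causes that were not tested. IAA against DMSO had 435 calls, 212 with only its own groups, 265 without the 4 arrays, and 246 to 489 without 1 array, with 257 without IAA 1 and 246 without IAA 2. Compounds against DMSO had 2117, 1236 with only its groups and 3618 without the 4 arrays. IAA with compounds against IAA had 2401, 4008 with only its groups and 5645 with array weights, and against compounds 498, with 778 under array weights. The change of the IAA response had 23 calls, 11 in the brighter probe sets, 7 without the 4 arrays and 8 to 32 without 1 array: 8 without IAA 1 and 15 when IAA 2, IAA plus A 3, IAA plus B 1 or IAA plus B 3 alone was left out.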

Other observations

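An unnamed probe set with the suffix _s_at, picked after its values were seen, followed AT2G41730 with r = 0.956 over the 21 arrays. It stood at 8.14 to 9.26 with B and at 7.46 to 8.17 with IAA plus B, and at 4.11 to 5.99 on the other 15 arrays. Its A minus B was -2.92 without IAA and -2.64 with IAA. That suffix marks probes shared by several transcripts, and whether it shares probes with AT2G41730 was not tested.

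With the group means removed, AT1G22810 and AT2G41730 had r = 0.33 over the 21 arrays, given as a description.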
